A study of Mus musculus with 10 samples.

Results

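The collagen family was followed in skin of mice in which hepcidin is overexpressed and of wild type mice. Its members were the protein-coding genes with a symbol made of Col, a number, the letter a and a number, with nothing after it, and 44 of the 55487 genes in the tables met this rule. By type of collagen they comprise 11 fibrillar, 6 basement membrane, 9 FACIT, 4 transmembrane, 6 beaded filament, 1 anchoring fibril, 3 short chain network and 2 multiplexin genes, and 2 others (Col26a1 and Col28a1). The series has 10 skin RNA-seq libraries, 5 from mice whose genotype the labels write as Hamp1-KI ker (KI) and 5 from WT mice, with 1 library per mouse. The labels do not spell out "ker", and they give no promoter or cell type that drives hepcidin and no strain or age of the animals. Titles carry the prefix EAS42 (3 KI, 2 WT) or EAS37 (2 KI, 3 WT), whose meaning is not given either. With libraries numbered within each group, KI 1, KI 2, WT 1, WT 2 and WT 3 carry EAS37, and the other libraries carry EAS42. Hamp, which encodes hepcidin, stood at 411, 872, 564, 521 and 469 TPM in KI skin, against 10.98, 18.4, 15.5, 10.3 and 13.6 TPM in WT skin, so every library matched its label. All levels are given in TPM, a unit scaled to the same total in every library and corrected for transcript length.

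A collagen molecule is a triple helix of 3 alpha chains, each the product of one Col gene. In dermis, fibroblasts secrete types I, III and V, which assemble into the fibrils that give skin its strength, and FACIT collagens sit on the surface of these fibrils. Type IV forms the network of basement membranes, type VII anchors the epidermal basement membrane to the dermis, and type XVII is a transmembrane protein that holds basal keratinocytes to it.

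The transcripts of most collagens that could be tested were less abundant in KI skin. Of the 39 members with enough reads to test, 22 fell and 1 rose at an adjusted p under 0.05, and 16 did not pass. Thus 56.4% of the tested collagens were lower and 2.56% higher, against 15.3% lower and 15.6% higher among all 17321 genes tested, of which 30.9% passed. The median log2 fold change of counts, KI over WT, was -0.72 for the 39 collagens and -0.01 for all genes, and 34 of the 39 values were below 0. In 15 members every KI library lay below every WT library (10% of all genes), and in 1 member every KI library lay above (7.63% of all genes). Summed over all 44 members, collagen held 0.191% to 0.375% of TPM in KI skin and 0.386% to 0.676% in WT skin. These are bulk samples, in which fewer cells of a type and less RNA per cell cannot be told apart.

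**Figure D1:**
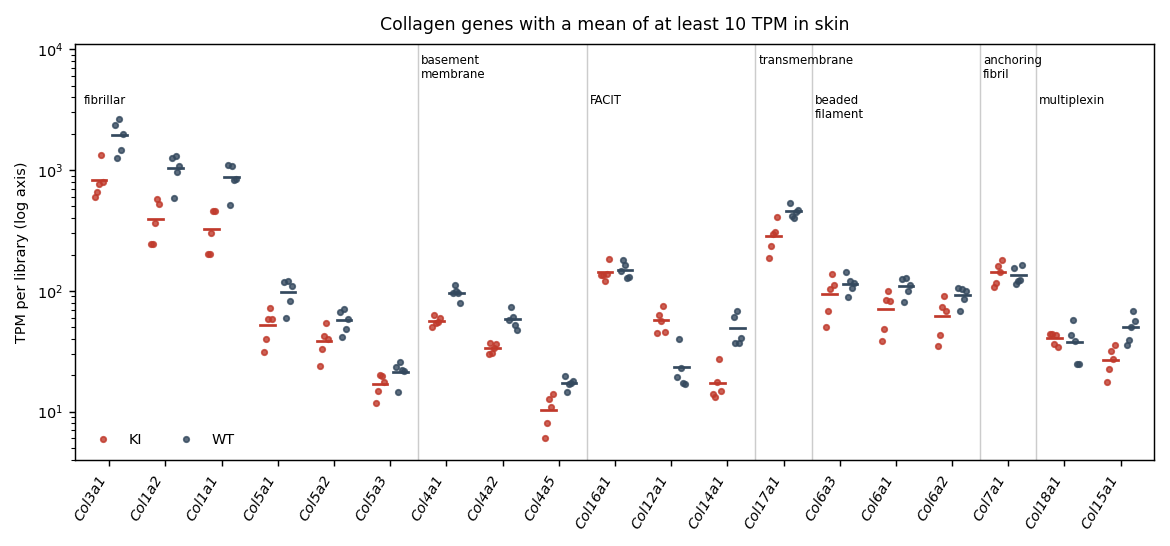
TPM (log axis) of the 19 collagen genes with a mean of at least 10 TPM, 1 point per library, with KI left of WT and a bar at the group mean. Col1a1, Col1a2, Col4a1, Col4a2, Col4a5, Col14a1 and Col15a1 are lower in every KI library, Col12a1 is higher in every KI library, and Col16a1, Col7a1 and Col18a1 overlap widely.

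The fibrillar collagens were the most abundant, and the chains of the main dermal fibril fell together. Col1a1, the alpha 1 chain of type I collagen (chr11:94936224-94953042, GRCm38), stood at 203, 202, 299.8, 462 and 457 TPM in KI skin, against 1099.9, 513, 1085, 832 and 851 TPM in WT skin. Its partner Col1a2 (chr6:4504814-4541544) stood at 243, 245, 365, 581 and 522 TPM in KI skin, against 1253, 590.3, 1309.7, 973 and 1078 TPM in WT skin. For both genes the lowest KI libraries were KI 1 and KI 2 (both EAS37), the lowest WT library was WT 2, and the groups did not overlap. Counts of Col1a1 in KI skin were 38.7% of those in WT skin (log2 fold change -1.37 ± 0.27, SE; edgeR adjusted p = 0.00468), and those of Col1a2 were 39.3% (-1.35 ± 0.27; edgeR adjusted p = 0.00525).

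Col3a1, whose product makes the homotrimer of type III collagen (chr1:45311538-45349706), was the most abundant collagen in both groups. It stood at 603, 657, 770.0, 1324 and 798 TPM in KI skin, against 2364, 1249, 2669, 1469.7 and 2004 TPM in WT skin. It fell to 46.5% of its WT counts (-1.10 ± 0.25; edgeR adjusted p = 0.00941), with KI 4 above WT 2.

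The stretches before the RefSeq starts of Col1a2 and Col3a1 are shown because these genes lie among the most abundant members and fell together. Each runs over the 250 bases before the start on build GRCm38.p6, 5′ to 3′ on the plus strand, chr6:4505368-4505617 for Col1a2 and chr1:45311288-45311537 for Col3a1. The RefSeq start of Col1a2 lies 804 bases inside the gene as GENCODE annotates it, so its stretch lies within that gene, while both annotations start Col3a1 at the same base. Capitals mark matches, on either strand, to the CCAAT box, to the TATA box, searched as TATAAA, and to the motif GGGCGG, a core of Sp1 sites.
Col1a2: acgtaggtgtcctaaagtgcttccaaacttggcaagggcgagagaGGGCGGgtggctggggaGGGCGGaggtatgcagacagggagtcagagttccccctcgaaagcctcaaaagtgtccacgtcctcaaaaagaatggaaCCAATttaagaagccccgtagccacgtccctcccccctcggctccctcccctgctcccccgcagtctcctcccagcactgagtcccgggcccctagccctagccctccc
Col3a1: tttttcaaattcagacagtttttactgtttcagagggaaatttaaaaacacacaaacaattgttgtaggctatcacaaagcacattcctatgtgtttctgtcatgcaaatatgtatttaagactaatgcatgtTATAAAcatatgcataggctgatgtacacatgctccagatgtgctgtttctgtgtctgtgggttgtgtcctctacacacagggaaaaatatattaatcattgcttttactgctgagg
The Col1a2 stretch holds GGGCGG with its first letter 205 and 188 bases before the start and CCAAT 109 bases before it. That of Col3a1 holds TATAAA 117 bases before the start and neither of the other motifs, and no matches overlap. RefSeq windows were found for 35 of the 44 members. Over their 38 windows CCAAT occurs in 34.2% (33.9% of all 32851 RefSeq windows), TATAAA in 13.2% (12.4%) and GGGCGG in 57.9% (32.7%).

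The minor fibrillar chains moved less. Col5a1, the type V chain that starts fibril assembly, stood at 31.4, 39.6, 58.4, 71.8 and 58.0 TPM in KI skin, against 118, 59.5, 119.9, 83.2 and 109 TPM in WT skin, and fell (-0.88 ± 0.22; edgeR adjusted p = 0.0143) with overlap at WT 2. Its partner chain Col5a2 stood at 24.0, 32.9, 42.01, 54.4 and 39.8 TPM in KI skin, against 67.5, 41.3, 70.8, 48.0 and 58.1 TPM in WT skin, and did not pass (-0.46 ± 0.19; edgeR adjusted p = 0.091; without KI 4 0.0399). Nor did Col5a3, at 11.9, 14.9, 20.2, 19.6 and 17.7 TPM in KI skin and 23.4, 14.6, 25.6, 22.1 and 21.8 TPM in WT skin (edgeR adjusted p = 0.163; without WT 2 0.0252). In each of these type V genes WT 2 lay below at least 1 KI library. Col11a1 and Col11a2 encode type XI chains, known mainly from cartilage, and both fell at low levels. Col11a1 had 0.94, 1.66, 2.28, 2.34 and 2.33 TPM in KI skin, against 2.36, 3.07, 3.46, 4.71 and 2.97 TPM in WT skin (-0.91 ± 0.24). Col11a2 had 1.18, 1.90, 2.49, 1.43 and 1.66 TPM in KI skin, against 3.53, 3.17, 2.43, 1.88 and 2.06 TPM in WT skin (-0.70 ± 0.17). KI 3 exceeded 3 WT libraries for Col11a2 and none for Col11a1, and Col11a2 did not pass on TPM or with effective lengths in the model (adjusted p = 0.103 to 0.107). Col11a1 did not pass on log2(TPM + 0.1) (limma adjusted p = 0.0525). Col24a1 (-0.73 ± 0.31; edgeR adjusted p = 0.0915) and Col27a1 (-0.34 ± 0.14; edgeR adjusted p = 0.0918; without KI 3 0.0460) did not pass. Col2a1, the cartilage fibril chain, was at 0 to 0.13 TPM in KI skin and 0.09 to 0.39 TPM in WT skin and had too few reads to test.

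The ratio of fibrillar chains to each other was tested within each library, on deposited TPM, by exact two-sided permutation tests over 5 against 5 libraries, for which the smallest possible p is 0.00794. The ratio of Col1a2 to Col1a1, whose products join in 1 trimer, was 1.21 ± 0.0414 in KI skin and 1.19 ± 0.0516 in WT skin (SD, n = 5 each; exact p = 0.516, 0.602 adjusted over 7 ratios). Col5a1 to Col1a1 was 0.166 ± 0.0297 in KI skin and 0.112 ± 0.0106 in WT skin (exact p = 0.0159, adjusted 0.0278), so Col1a1 fell further than Col5a1. Col6a1 to Col1a1 was 0.221 ± 0.0398 in KI skin and 0.128 ± 0.0174 in WT skin, with no overlap (exact p = 0.00794, adjusted 0.0185). Col3a1 to Col1a1 did not pass, at 2.68 ± 0.578 in KI skin and 2.23 ± 0.288 in WT skin (exact p = 0.23). Without KI 5, whose ratio of 1.75 was the lowest, the exact p of that ratio was 0.0159.

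**Figure D2:**
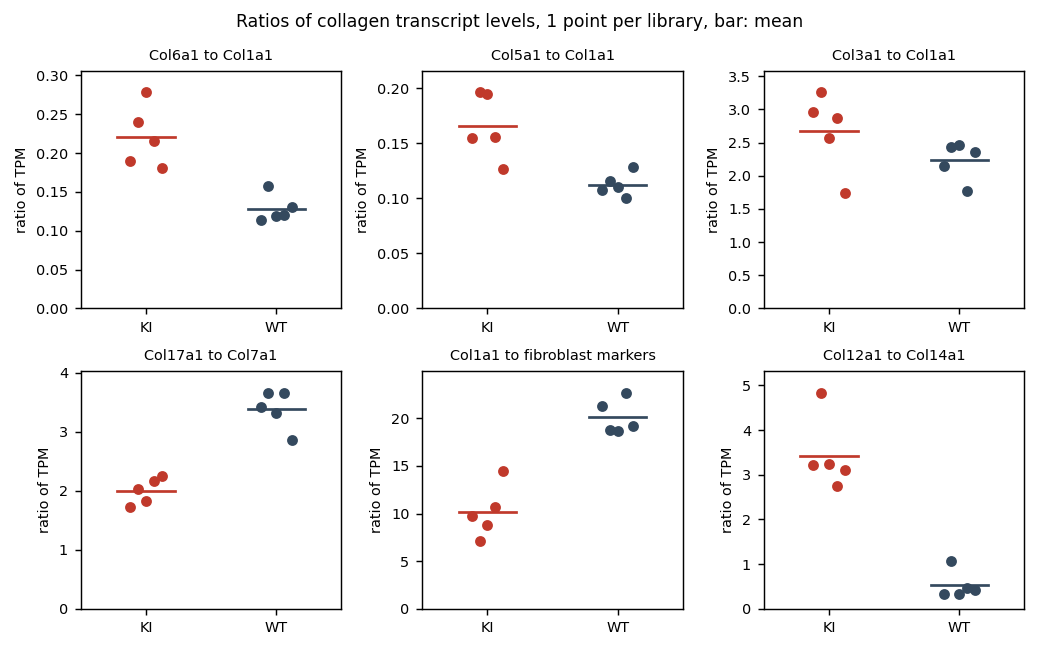
Ratios of TPM within a library, 1 point per library, KI left of WT, with a bar at the mean and each axis starting at 0. Col6a1 to Col1a1 and Col12a1 to Col14a1 are higher, and Col17a1 to Col7a1 and Col1a1 to fibroblast markers lower, in every KI library than in every WT library.

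All 6 type IV genes of the basement membrane fell, and in none of them did the groups overlap. Col4a1 and Col4a2 encode the chains of the common type IV trimer. Col4a1 (chr8:11198423-11312826) stood at 49.8, 62.7, 54.2, 55.6 and 59.2 TPM in KI skin, against 95.5, 111, 99.6, 95.8 and 79.3 TPM in WT skin (-0.75 ± 0.09; edgeR adjusted p = 4.37e-04). Col4a2 (chr8:11312805-11449287) stood at 30.04, 36.9, 30.5, 33.5 and 36.5 TPM in KI skin, against 57.5, 73.3, 60.9, 52.2 and 47.7 TPM in WT skin (-0.72 ± 0.12; edgeR adjusted p = 0.00214). The KI libraries were close to each other in both genes, and their ratio, Col4a2 to Col4a1, was 0.595 ± 0.0208 in KI skin and 0.604 ± 0.0409 in WT skin (SD, n = 5 each; exact two-sided permutation p = 0.746).

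The genes of this pair lie head to head and share their 5′ ends, which is why the 30 bases around both starts are shown. They run from chr8:11312801-11312830 on the plus strand of GRCm38.p6. The 22 capitals belong to the 5′ end of both genes, Col4a2 reading left to right and Col4a1 from the other strand.
Col4a1-Col4a2: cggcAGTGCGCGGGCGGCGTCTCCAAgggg
The other type IV genes form 2 further head-to-head pairs in the annotation. Col4a4 and Col4a3 are 71 bases apart on chromosome 1, and Col4a6 and Col4a5 are 1308 bases apart on chromosome X.

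The members of each pair had like fold changes. Col4a3 and Col4a4, chains of a trimer best known from kidney, were low in skin and had the largest falls of the class. Col4a3 had 0.32, 0.31, 0.40, 0.50 and 0.82 TPM in KI skin, against 1.46, 1.64, 0.87, 1.69 and 1.91 TPM in WT skin (-1.66 ± 0.31). Col4a4 had 0.54, 0.27, 0.63, 0.62 and 1.17 TPM in KI skin, against 1.90, 2.11, 1.66, 2.88 and 3.22 TPM in WT skin (-1.81 ± 0.33; edgeR adjusted p = 0.00383). KI 5 was the highest KI library for both. Col4a5 and Col4a6 encode the chains of a further type IV trimer. Col4a5 had 6.11, 8.06, 12.7, 10.9 and 13.96 TPM in KI skin, against 19.9, 14.5, 17.1, 17.4 and 17.95 TPM in WT skin (-0.72 ± 0.17). Col4a6 had 3.47, 3.69, 5.81, 5.45 and 6.07 TPM in KI skin, against 9.37, 6.77, 7.13, 9.06 and 9.43 TPM in WT skin (-0.72 ± 0.15; edgeR adjusted p = 0.00682). In both genes KI 1 and KI 2 (both EAS37) were the lowest KI libraries.

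In the fit over all 10 libraries, the FACIT class held the only rise among the tested collagens. Col12a1, whose product lines the surface of type I fibrils (chr9:79598991-79718831), stood at 45.1, 63.7, 56.8, 74.7 and 46.1 TPM in KI skin, against 19.5, 40.0, 22.9, 17.2 and 16.95 TPM in WT skin. Every KI library exceeded every WT library, and WT 2 stood apart from the other WT libraries. Counts were 2.22 times as high in KI skin (1.15 ± 0.27; edgeR adjusted p = 0.012), and by mean TPM the gene ranked 10 in KI skin and 17 in WT skin among the 44. Col14a1, another collagen of the fibril surface, went the other way. It stood at 14.1, 13.2, 17.5, 27.2 and 14.9 TPM in KI skin, against 60.9, 37.1, 68.6, 37.4 and 40.9 TPM in WT skin (-1.42 ± 0.24; edgeR adjusted p = 0.00309). The ratio of Col12a1 to Col14a1, looked at after the values were seen and not tested, was 2.75 to 4.84 in KI skin and 0.320 to 1.08 in WT skin.

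Of the other FACIT genes, 3 with low levels fell. Col9a2 and Col9a3 encode chains of type IX collagen, which decorates cartilage fibrils. Col9a2 had 0.30, 0.52, 0.75, 0.21 and 0.93 TPM in KI skin, against 1.47, 1.84, 1.57, 1.79 and 2.11 TPM in WT skin (-1.52 ± 0.41; edgeR adjusted p = 0.0176). Col9a3 had 3.53, 1.64, 2.42, 1.99 and 3.26 TPM in KI skin, against 9.60, 6.31, 13.9, 5.81 and 5.03 TPM in WT skin (-1.68 ± 0.27; edgeR adjusted p = 0.00222). The groups did not overlap for either gene, while their partner Col9a1 stayed at or under 0.12 TPM in every library and was not tested. Col20a1 had 2.27, 2.13, 1.99, 2.23 and 3.02 TPM in KI skin, against 3.58, 5.38, 4.88, 5.86 and 6.79 TPM in WT skin (-0.99 ± 0.22; edgeR adjusted p = 0.00769). Col20a1 is uncertain, since BX649560.1 overlaps it on the same strand, with 2106 counts over the 10 libraries for Col20a1 and 2515 for BX649560.1, so that reads could be split between them. Col9a3 (1622 counts) is overlapped by Tcfl5 (294 counts) on the other strand. Col16a1, the most abundant FACIT gene, had 135, 134, 119.9, 139 and 183 TPM in KI skin and 145, 179, 163, 128 and 131 TPM in WT skin. Its counts did not pass (-0.26 ± 0.13; edgeR adjusted p = 0.149). Col19a1 and Col22a1 had too few reads to test, with 7 and 27 counts in all KI libraries and 13 and 101 in all WT libraries.

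**Figure D3:**
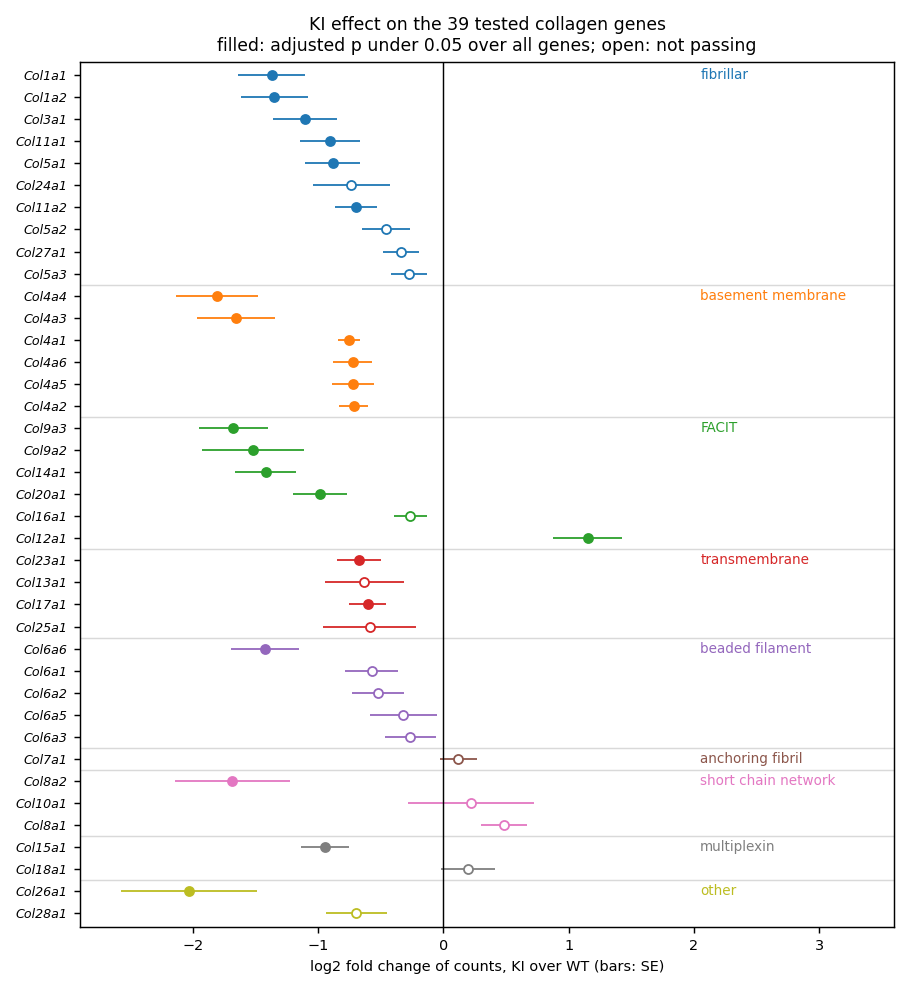
Log2 fold change of counts, KI over WT, with SE for the 39 tested collagen genes, grouped by class. Filled points pass the test over all genes (22 to the left of 0, and Col12a1 to the right), and open points do not pass.

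Among the transmembrane collagens, Col17a1 and Col23a1 fell. Col17a1, the hemidesmosomal collagen also known as BP180 (chr19:47646344-47692094), stood at 187, 235, 295, 309 and 411 TPM in KI skin, against 532, 418, 401, 453 and 468 TPM in WT skin. It fell to 65.8% of its WT counts (-0.60 ± 0.15; edgeR adjusted p = 0.0117), with KI 5 just above WT 3. Col23a1 had 4.32, 5.07, 4.84, 5.46 and 8.21 TPM in KI skin, against 9.41, 6.37, 8.75, 11.7 and 10.6 TPM in WT skin (-0.67 ± 0.18; edgeR adjusted p = 0.0166). The groups overlapped there through KI 5 as well. Col13a1 (-0.63 ± 0.31; edgeR adjusted p = 0.146; without KI 5 -0.86, 0.0496) and Col25a1 (-0.59 ± 0.37; edgeR adjusted p = 0.243) did not pass.

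Col7a1, the anchoring fibril collagen that lies below the hemidesmosome, did not pass the test. It stood at 109, 116, 161, 143 and 182 TPM in KI skin and at 156, 114, 121, 124 and 163 TPM in WT skin (0.12 ± 0.15; edgeR adjusted p = 0.56). Its 95% interval, by a normal approximation from the SE, was -0.17 to 0.41. The ratio of Col17a1 to Col7a1 was 2.0 ± 0.225 in KI skin and 3.38 ± 0.328 in WT skin, with no overlap (SD, n = 5 each; exact two-sided permutation p = 0.00794, adjusted over 7 ratios 0.0185). Both genes act at the junction of epidermis and dermis, so their stretches before the RefSeq start are set side by side. They cover chr19:47692043-47692292 on the minus strand for Col17a1 and chr9:108953336-108953585 on the plus strand for Col7a1 (250 bases, GRCm38.p6), with the same motifs in capitals. The RefSeq start of Col17a1 lies 52 bases inside the GENCODE gene, and that of Col7a1 is the same in both.
Col17a1: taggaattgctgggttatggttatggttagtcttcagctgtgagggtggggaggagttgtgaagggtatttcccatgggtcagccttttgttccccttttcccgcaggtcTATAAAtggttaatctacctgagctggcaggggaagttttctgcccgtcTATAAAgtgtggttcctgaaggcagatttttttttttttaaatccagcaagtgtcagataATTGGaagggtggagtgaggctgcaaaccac
Col7a1: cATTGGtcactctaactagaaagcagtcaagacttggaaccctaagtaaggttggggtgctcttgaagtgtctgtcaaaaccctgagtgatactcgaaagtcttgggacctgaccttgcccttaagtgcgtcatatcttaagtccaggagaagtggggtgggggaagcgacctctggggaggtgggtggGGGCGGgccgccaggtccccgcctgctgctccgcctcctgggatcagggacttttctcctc
Col17a1 holds TATAAA 140 and 91 bases before the start and CCAAT, on the other strand, 31 bases before it. Col7a1 holds CCAAT on the other strand 249 bases and GGGCGG 61 bases before the start, and no TATAAA in this window.

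The beaded filaments of type VI collagen surround cells and link them to fibrils. The type VI chains Col6a1, Col6a2 and Col6a3 did not pass in the fit over all 10 libraries without a block. Col6a1 stood at 38.6, 48.6, 83.5, 99.96 and 82.4 TPM in KI skin, against 126, 80.9, 129, 101 and 111 TPM in WT skin (-0.57 ± 0.21; edgeR adjusted p = 0.0635). Col6a2 stood at 35.2, 42.8, 73.0, 90.3 and 68.0 TPM in KI skin, against 105, 68.8, 104, 86.3 and 99.6 TPM in WT skin (-0.52 ± 0.21; edgeR adjusted p = 0.0778). Col6a3 stood at 50.5, 67.9, 105, 138 and 112 TPM in KI skin, against 143, 89.2, 120.2, 106 and 116 TPM in WT skin (-0.26 ± 0.21; edgeR adjusted p = 0.347). Col6a1 and Col6a2 passed as lower with the prefix as a block (-0.71 and -0.66; edgeR adjusted p = 0.0159 and 0.0155), in DESeq2 (adjusted p = 0.0300 and 0.0434) and without KI 4 (0.0368 and 0.0331), and Col6a1 also without WT 2 (0.0443). In all 3 genes KI 1 and KI 2, the KI libraries of EAS37, were the lowest of the 10 libraries. The KI libraries of EAS42 lay within or near the WT range. Col6a6, a later-found type VI chain, fell: it had 1.64, 0.65, 2.02, 2.07 and 1.64 TPM in KI skin, against 4.61, 3.43, 6.16, 3.97 and 4.55 TPM in WT skin (-1.42 ± 0.27; edgeR adjusted p = 0.00456), without overlap. Col6a5 did not pass (-0.32 ± 0.27). Col6a4 was under the filter on low counts, with 56 counts in all KI libraries and 10 in all WT libraries. Without the filter it was higher in KI skin (2.48 ± 0.69; edgeR adjusted p = 0.0233).

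The remaining members split. Col15a1 and Col18a1 encode multiplexins of basement membrane zones, and endostatin is cut from the product of Col18a1. Col15a1 stood at 17.7, 22.5, 32.0, 27.3 and 35.5 TPM in KI skin, against 35.9, 39.6, 49.9, 68.0 and 56.1 TPM in WT skin, without overlap (-0.95 ± 0.19; edgeR adjusted p = 0.00588). Col18a1 stood at 44.4, 43.6, 36.5, 43.4 and 34.6 TPM in KI skin and at 43.2, 57.8, 38.2, 24.9 and 24.7 TPM in WT skin (0.19 ± 0.22; edgeR adjusted p = 0.521), and its 30479 counts overlap in position with 1940 of Slc19a1 on the other strand. Of the short chain network collagens, Col8a2 had 1.62, 1.59, 2.84, 3.69 and 9.08 TPM in KI skin, against 17.3, 8.11, 14.8, 10.6 and 10.96 TPM in WT skin (-1.68 ± 0.46; edgeR adjusted p = 0.0217), with KI 5 above WT 2, and it did not pass without the filter on low counts (0.0619). Its type VIII partner Col8a1 had 2.54 to 4.26 TPM in KI skin and 2.02 to 3.57 TPM in WT skin (0.48 ± 0.18; edgeR adjusted p = 0.0676; 0.0363 without KI 2 and 0.0307 without WT 4), and Col10a1, the hypertrophic cartilage collagen, did not pass at 0.04 to 0.35 TPM in KI skin and 0.11 to 0.27 TPM in WT skin. Col26a1 had 0.54, 0.17, 1.06, 0.18 and 0.54 TPM in KI skin, against 0.57, 1.84, 1.28, 3.82 and 2.8 TPM in WT skin (-2.03 ± 0.54; edgeR adjusted p = 0.018). Col28a1 did not pass (-0.70 ± 0.25; edgeR adjusted p = 0.0513; 0.0188 without WT 1).

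The make-up of collagen transcripts shifted with these unequal changes. Fibrillar genes held 60.1% ± 4.17 of summed collagen TPM in KI skin and 72.7% ± 5.32 in WT skin (SD, n = 5 each, also below), with KI 4 at 67.4% and WT 2 at 64.3% as the overlap. The anchoring fibril gene Col7a1 held 5.32% ± 0.869 in KI skin and 2.52% ± 0.479 in WT skin, and beaded filament genes held 8.22% ± 1.23 in KI skin and 5.91% ± 0.379 in WT skin, neither with overlap. FACIT genes held 8.49% ± 1.74 in KI skin and 4.49% ± 1.42 in WT skin, although 4 of the 6 tested fell. Their summed level was 222 ± 24.7 TPM in KI skin and 237 ± 36.4 TPM in WT skin. Transmembrane genes held 10.8% ± 1.72 in KI skin and 8.75% ± 1.83 in WT skin, and basement membrane genes 4.08% ± 0.952 in KI skin and 3.52% ± 1.13 in WT skin. These shares sum to 100% in each library, so a smaller fibrillar share raises the others.

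**Figure D4:**
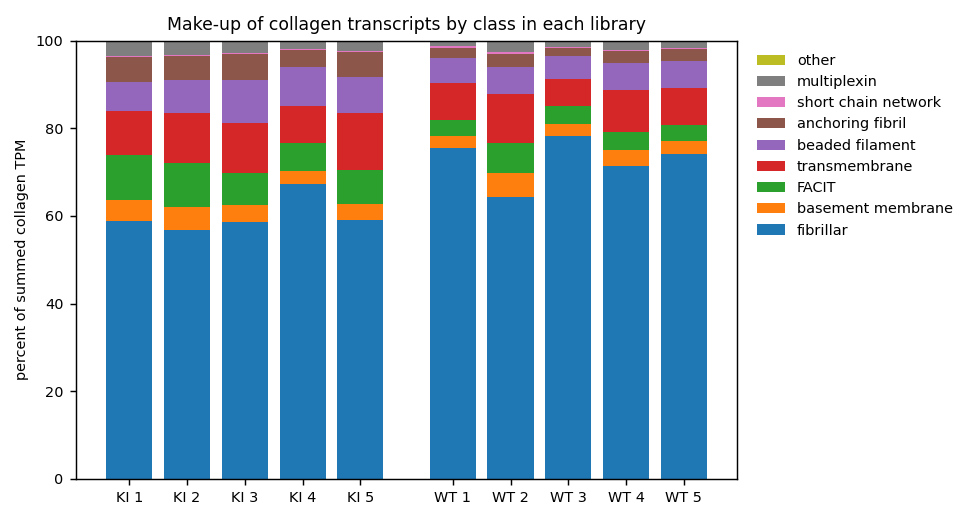
Percent of summed collagen TPM held by each collagen class, 1 bar per library, KI libraries left of WT libraries. The fibrillar share averages 60.1% in KI skin and 72.7% in WT skin, and the anchoring fibril and beaded filament shares are larger in every KI library.

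The KI effect was also read within each title prefix, and a difference between the prefixes did not pass in any collagen in edgeR. The median log2 fold change of the 39 collagens, KI over WT, was -0.70 within EAS42 and -0.995 within EAS37. All 22 members that fell had negative values within both. In 33 of 39 members (84.6%) the value was lower in EAS37, against 55.5% of all genes. In a model with an interaction, the KI effect passed in 15 members within EAS42 (15.1% of all genes) and in 27 within EAS37 (35.8% of all genes). Those within EAS42 included Col18a1 as higher (0.58; edgeR adjusted p = 0.0474). Col18a1 also passed as higher when EAS42 was fitted alone (0.57; edgeR adjusted p = 0.0203). The test of the difference between the prefixes was passed by 0 members (0.866% of all genes), with 8 at an unadjusted p under 0.05, or 20.5% against 17.7% of all genes. The smallest p among them belonged to Col6a1, with -0.27 within EAS42 and -1.16 within EAS37 (unadjusted p = 0.00472; edgeR adjusted p = 0.107). Col12a1 was 1.45 within EAS42 and 1.05 within EAS37, and in that model passed in neither (edgeR adjusted p = 0.0595 and 0.0747). Fitted on EAS37 alone, on 2 KI and 3 WT libraries, Col12a1 did not pass (edgeR adjusted p = 0.14), nor did Col6a6 (0.0655) and Col26a1 (0.123). Fitted on EAS42 alone, on 3 KI and 2 WT libraries, 7 of the 22 did not pass. They were Col3a1 (edgeR adjusted p = 0.0814), Col14a1 (0.0710), Col17a1 (0.0656), Col11a1 (0.0575), Col8a2, Col9a2 and Col11a2 (0.229 to 0.313).

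**Figure D5:**
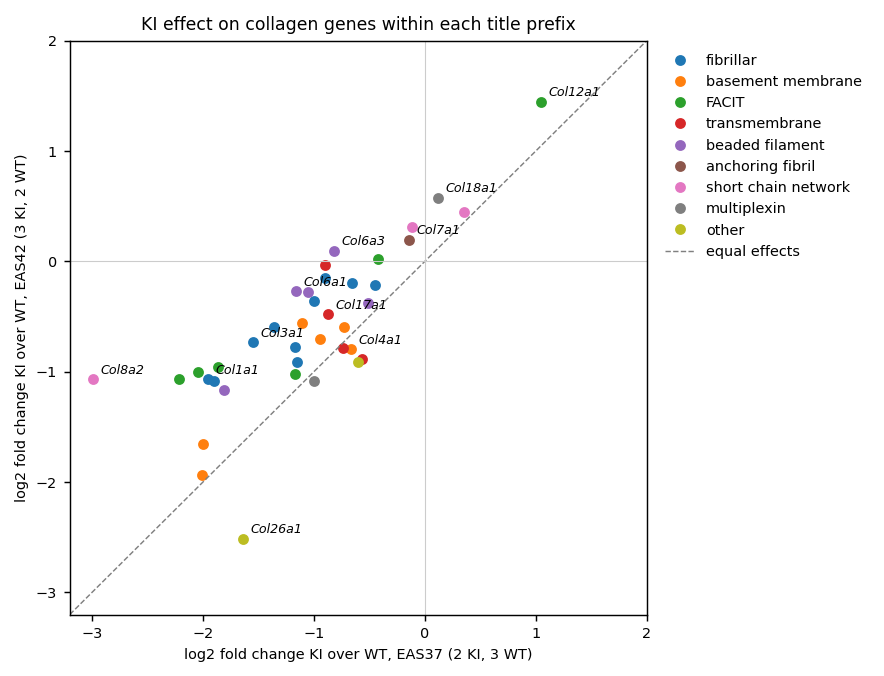
Log2 fold change of counts, KI over WT, of the 39 tested collagens within EAS42 (vertical) against that within EAS37 (horizontal), 1 point per gene, coloured by class. Most points lie above the dashed line of equal effects, and Col12a1 alone lies far into the upper right.

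Genes of the collagen pathway were looked at by step, to be read against the 15.3% of all genes that fell and the 15.6% that rose. Over the 6 lists, 20 of 58 tested genes fell (34.5%) and 5 rose (8.62%). The share that passed in either direction was 43.1% over these lists and 30.9% over all genes. Among 15 genes that hydroxylate and glycosylate procollagen, 4 fell and 2 rose. P4ha3, a catalytic subunit of prolyl 4-hydroxylase, had 2.60, 2.77, 2.32, 3.87 and 2.34 TPM in KI skin, against 0.18, 0.58, 0.28, 0.27 and 0.47 TPM in WT skin (3.34 ± 0.28 on counts; edgeR adjusted p = 7.19e-05). Its relative P4ha2 fell to 15.8 ± 3.27 TPM in KI skin, against 25.8 ± 4.29 TPM in WT skin (-0.67 ± 0.12). The lysyl hydroxylase Plod1 (-0.63 ± 0.09) and the prolyl 3-hydroxylase P3h1 (-0.52 ± 0.12) fell without overlap. The other passing genes, named after their values were seen, were P3h3 (-0.54 ± 0.17) and the shared beta subunit P4hb (0.39 ± 0.11). Of 10 folding and secretion genes 6 fell (60%) and 1 rose. Sparc, a secreted collagen-binding protein, had 677 ± 224 TPM in KI skin and 1578 ± 267 TPM in WT skin (-1.15 ± 0.20; edgeR adjusted p = 0.00289). Sec23a (-0.39 ± 0.08), a coat protein of export vesicles, Fkbp14 (-0.87 ± 0.19), a prolyl isomerase, and Serpinh1 (-0.58 ± 0.15), the collagen chaperone HSP47, fell too. The riser, named after its value was seen, was Mia2 (0.21 ± 0.07).

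Further along the pathway, 3 of 7 tested propeptide processing genes fell over all 10 libraries, and none rose there in edgeR, DESeq2 or limma-voom. Pcolce, an enhancer of procollagen C-proteinase, had 67.5 ± 19.1 TPM in KI skin and 149 ± 27.9 TPM in WT skin (-1.21 ± 0.16; edgeR adjusted p = 7.28e-04). Its relative Pcolce2 (-1.16 ± 0.29) and the N-proteinase Adamts14 (-1.20 ± 0.26) fell, while Adamts2 did not pass (-0.49 ± 0.20; edgeR adjusted p = 0.0841; without KI 4 0.0165). Bmp1, named after its values were seen, did not pass over all 10 libraries (-0.04 ± 0.15; edgeR adjusted p = 0.86). In the interaction model Bmp1 was lower within EAS37 (-0.41; edgeR adjusted p = 0.00922) and higher within EAS42 (0.45; 0.0158). The difference between the prefixes passed for Bmp1 (edgeR adjusted p = 0.0341). Of 5 crosslinking enzymes, Loxl3 (-0.86 ± 0.16) and Loxl2 (-0.66 ± 0.20) fell, and Lox (-0.58 ± 0.20; edgeR adjusted p = 0.0514) and Loxl4 (-0.33 ± 0.25; edgeR adjusted p = 0.331) did not pass. Loxl2 did not pass without KI 1, KI 2, KI 5, WT 1 or WT 3 (edgeR adjusted p = 0.0599 to 0.0714), nor Loxl3 with effective lengths (0.0514) or on log2(TPM + 0.1) (limma adjusted p = 0.0521). Lox passed as lower without KI 4 (0.0260) or WT 2 (0.0321), with the prefix as a block (0.0328) and in DESeq2 (0.0218). Of 9 tested receptor and uptake genes 3 passed (33.3%), a share near that of all genes. The integrin subunits Itga10 (-0.59 ± 0.15) and Itga1 (-0.41 ± 0.11) fell. Itga10 did not pass with effective lengths (edgeR adjusted p = 0.0671), nor on log2(TPM + 1) or log2(TPM + 0.1) (limma adjusted p = 0.0600 and 0.0700). Lair1, an inhibitory receptor of immune cells that binds collagen, rose to 0.876 ± 0.357 TPM in KI skin, against 0.262 ± 0.204 TPM in WT skin (2.02 ± 0.51; edgeR adjusted p = 0.0141), and Ddr2 did not pass (0.39 ± 0.15; edgeR adjusted p = 0.0738; 0.0391 without KI 5 and 0.0358 without WT 3). Of 12 TGF beta pathway genes, which include known inducers of collagen transcription, 3 fell and 1 rose, also a share near that of all genes. Ccn2 had 43.0 ± 19.6 TPM in KI skin and 129 ± 42.5 TPM in WT skin (-1.51 ± 0.30), the ligand Tgfb2 3.69 ± 1.81 TPM in KI skin and 11 ± 1.82 TPM in WT skin (-1.44 ± 0.28). The inhibitor Smad7 fell (-0.65 ± 0.20), and the ligand Tgfb1 rose (0.56 ± 0.16; edgeR adjusted p = 0.0245). Smad7 did not pass without KI 1, KI 3, KI 4, KI 5 or WT 1 (edgeR adjusted p = 0.0561 to 0.0750), and Tgfb1 did not pass without KI 2, KI 4, WT 4 or WT 5 (0.0503 to 0.0531). Nor did Smad7 pass on log2(TPM + 1) or log2(TPM + 0.1) (limma adjusted p = 0.0530 and 0.0513). With each prefix fitted alone, Itga10, Lair1 and Smad7 passed in neither, and Itga1 and Tgfb1 did not pass in EAS37 (edgeR adjusted p = 0.0516 to 0.189).

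Marker lists of cell types in skin are given beside these results. Over all genes 15.3% fell, 15.6% rose and 30.9% passed in either direction. Most tested members of the endothelial, smooth muscle, Schwann cell and adipocyte lists fell. Most of the fibroblast and basal keratinocyte lists did not pass, which was also the commoner outcome among all genes. Fibroblast markers without collagens had 3 of 12 lower (Mfap5, Dpp4 and Pi16) and 1 higher (Thy1). Their median log2 fold change was -0.45, with -0.94 within EAS37 and -0.13 within EAS42. Their summed level was 495 to 1056 TPM in KI skin and 647 to 1386 TPM in WT skin, with no marker at 0. Col1a1 was also set against the geometric mean of these markers, their TPM averaged on the log2 scale. The ratio was 10.2 ± 2.73 in KI skin and 20.1 ± 1.77 in WT skin, without overlap (SD, n = 5 each; exact two-sided permutation p = 0.00794, adjusted over 7 ratios 0.0185). With the fibroblast level in the model 17 collagens were lower and Col12a1 was higher, and Col17a1 no longer passed (edgeR adjusted p = 0.0517), nor did Col11a1, Col11a2, Col23a1 and Col8a2. Basal keratinocyte markers, of the cells that carry Col17a1, had 3 of 9 higher and 1 lower, a median of 0.07, and summed to 9431 to 16361 TPM in KI skin and 5873 to 9765 TPM in WT skin. In KI skin Krt14 was most of that sum, at 8613 ± 2534.5 TPM of 12773 TPM on average. In WT skin it was not, at 3473 ± 1227 TPM of 8068 TPM. Krt14 differed between the groups by more than the sum did. Krt5, its keratin partner, did not pass, at 3648 TPM on average in KI skin and 4022 TPM in WT skin (edgeR adjusted p = 0.876). Endothelial markers had 7 of 9 lower (94.0 to 159 TPM summed in KI skin, 176 to 255 TPM in WT skin). Smooth muscle markers had 6 of 7 lower (211 to 474 TPM in KI skin, 565 to 905 TPM in WT skin). Des was most of that sum, at 197 TPM of 359 TPM on average in KI skin and 443 TPM of 724 TPM in WT skin. Schwann cell markers had 7 of 8 lower (106 to 326 TPM in KI skin, 443 to 1314 TPM in WT skin). Adipocyte markers had 6 of 8 lower (763 to 1509.5 TPM in KI skin, 2278 to 3292 TPM in WT skin), and dermal papilla markers 4 of 8 (11.3 to 38.6 TPM in KI skin, 23.8 to 60.6 TPM in WT skin). Of the cartilage markers 4 of 8 had too few reads to test and 0 of the other 4 passed in edgeR or DESeq2 (1 at an unadjusted p under 0.05, 1 lower in limma-voom), at 42.3 to 62.2 TPM summed in KI skin and 25.2 to 71.0 TPM in WT skin, nearly all of it Sox9. The part of these cells in the collagen values was not tested beyond the models named.

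Of the 10 skeletal muscle markers 0 passed in edgeR, with 9 lower at an unadjusted p under 0.05, 8 lower in DESeq2 and 4 lower in limma-voom. They summed to 2499 to 26518 TPM in KI skin and 26588 to 44321 TPM in WT skin. Their mean log2 CPM, the level used as covariate, was 7.64 to 11.11 in KI skin and 11.06 to 11.80 in WT skin. It varied widely among KI libraries but overlapped only slightly between the groups. The parts of marker level and genotype cannot be told apart. With the muscle level in the model, 428 genes in all passed, and of the collagens only Col4a1 (-0.89; edgeR adjusted p = 0.00392) and Col4a2 (-0.86; edgeR adjusted p = 0.0233) passed, both lower. Col1a1 was then -1.11 (edgeR adjusted p = 0.162) and Col12a1 0.84 (edgeR adjusted p = 0.281), and all 22 members that fell had negative values. In 10 of these the log2 fold change was over 1.5 times smaller than without the covariate, Col26a1 (-0.85), Col20a1 (-0.49), Col4a6 (-0.38), Col4a4 (-0.95), Col9a2 (-0.86), Col4a5 (-0.41), Col4a3 (-0.97), Col8a2 (-1.04), Col17a1 (-0.38) and Col6a6 (-0.94). In 4 it was slightly larger, Col4a1, Col4a2, Col14a1 (-1.47; edgeR adjusted p = 0.0844) and Col3a1 (-1.14; edgeR adjusted p = 0.149).

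The deposited tables also give a mean transcript length per gene, weighted by the abundance of its isoforms, which the choice of members did not use. Of 35 collagens whose length varied between libraries 0 passed in limma (0.00737% of 13575 genes), and 2 had an unadjusted p under 0.05 (9.07% of all genes). Col16a1 had a length of 1621 ± 101 bases in KI skin and 1905 ± 154 bases in WT skin (SD, n = 5 each), without overlap (2.19% of all genes), at a limma adjusted p of 0.317. Its KI libraries ran from 1495 to 1716 bases and its WT libraries from 1753 to 2083 bases. Col12a1 had 3622 ± 291 bases in KI skin and 4227 ± 316 bases in WT skin (limma adjusted p = 0.355). With effective lengths in the count model, the Col16a1 change on the log2 scale was 0.0029.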

How the data were processed

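Per the labels' protocols, trizol RNA from mouse skin went into an Illumina stranded mRNA kit. The tables deposited by the authors are RSEM output, per the file headers, and hold estimated (expected) counts, TPM, FPKM and isoform-weighted lengths per gene. FPKM, computed by the authors, was left aside. GRCm38, STAR 2.5.2b, DESeq2 1.14.1, Picard 2.8.1, featureCounts and FastQC appear in the submitters' processing notes without role or order. RSEM version, annotation release and strand setting: not given in the sources used here. Titles gave the genotype, and replicates were numbered by accession, which pairs nothing.

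Gene identifiers were named from GENCODE M21 on GRCm38 (55227 of 55487 matched; the 260 others held 0.0113% of counts). Deposited expected counts (10.4% to 12.2% of values per library were fractional) were rounded and summed to 18.96 to 26.43 M per library. No pair of libraries of a group agreed within sampling noise (lowest chi-square per gene 29.46). Genes were kept by filterByExpr (minimum count 10, minimum total 15), leaving 17321 and removing 0.127% of counts. KI was tested against WT by the robust quasi-likelihood test of edgeR 4.0.16 (R 4.3.3, TMM) with Benjamini-Hochberg adjustment over all 17321 genes and a threshold of 0.05; collagen values were read from that fit. Fold changes are on the log2 scale of counts. Transcript lengths were tested by limma 3.58.1 on log2 length. 7 ratios of deposited TPM were tested by exact permutation. Alternatives were DESeq2 1.42.0, limma-voom, DESeq2 size factors, no filter or a minimum count of 50, effective lengths, limma on log2(TPM + 1) and log2(TPM + 0.1), the prefix as a block, marker levels (mean log2 CPM, prior count 2) as covariates, each prefix alone and each library left out. The count and length tests were tried on simulated data.

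The members, gene lists and tests were chosen with earlier results of these data known. Named were all collagens, with values per library for those that passed or averaged at least 10 TPM, and up to 4 genes of each pathway list with the smallest p. Of the listed FACIT symbols Col21a1 was not matched. Promoter windows are RefSeq's on GRCm38.p6.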

Additional observations from a re-analysis of the deposited data

Results flagged for a closer look

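In 7 of 92 groups of 5 libraries examined, 1 library lay far from the other 4, by a gap of over 0.71 of the group's range. About 1 in 20 such groups would be flagged if values were independent and normally distributed. TPM need not be normal, and the groups share the same 10 libraries, so the rate by chance in these data is not known. KI 5 was the high library in 4 of them. It had 9.08 TPM of Col8a2 (1.59 to 3.69 in the other KI libraries), 2.66 TPM of Col13a1 (0.61 to 0.99), 3.02 TPM of Col20a1 (1.99 to 2.27) and 0.31 TPM of Col25a1 (0.11 to 0.13). KI 4 had 1324 TPM of Col3a1, with 603 to 798 TPM in the other KI libraries. Among WT libraries, WT 2 had 40.03 TPM of Col12a1 (16.95 to 22.93 in the others), and WT 4 had 1.92 TPM of Col24a1 (0.84 to 1.12 in the others). Of these genes, Col3a1, Col8a2, Col20a1 and Col12a1 passed the test with every library and with any 1 library left out. Col8a2 did not pass without the filter on low counts (edgeR adjusted p = 0.0619), and Col13a1 passed as lower without KI 5 (-0.86; edgeR adjusted p = 0.0496).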

How the results depend on the processing

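The 22 collagens that fell and the 1 that rose kept their calls with any 1 library left out, when 22 to 25 were lower, 1 to 3 higher, and 3821 to 5850 genes passed in all. Col6a4, outside the filter in the full set, entered as higher without KI 1 or any 1 WT library and without the filter (2 higher); DESeq2 (25 lower, 2 higher) added Col8a1. The muscle level as covariate left 428 genes, 2 collagens lower and 0 higher, and 1 pathway gene lower and 1 higher; the fibroblast level left 2992 genes and 3 pathway genes higher. EAS42 alone gave 2488 genes, 15 collagens lower and 2 higher (Col12a1 and Col18a1), and 10 pathway genes lower. EAS37 alone gave 25 lower, 0 higher, and 2 pathway genes higher, and Col6a6 and Col26a1 did not pass there. The prefix as a block gave 28 lower. Pathway genes higher were 3 on either TPM scale and 2 to 6 (lower 16 to 26) with 1 library left out. Signs turned for Col16a1 (0.0029 with effective lengths, 0.0078 in EAS42), Col10a1 (-0.0408 on log2(TPM + 0.1), -0.101 in EAS37, -0.0984 to 0.473 with 1 library left out), Col18a1 (-0.0769 with muscle), Col6a3 (0.0575 with fibroblasts, 0.0860 in EAS42) and Col7a1 (-0.11 in EAS37), none of which passed over all 10 libraries. The log2 ratio of Col4a2 to Col4a1 (-0.02) was 0.0472 on counts and -0.0564 to 0.0128 with 1 library left out, and that of Col3a1 to Col1a1 (0.24) was 0.16 to 0.39. Genes passing on length were 0 with at least 50 counts, 2 with the prefix and 0 to 3 with 1 library left out. The cause of these changes was not tested. TPM scaling moved the median of all genes to -0.07. No paired analysis was possible because the titles name no pairs of mice. 5 members were too low to test.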
